A study of Mus musculus with 9 samples.

Results

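Ubiquitin-conjugating (E2) enzymes were followed in the testes of mice lacking the testis gene profilin 3 (Pfn3). The group was defined by name. It holds the 40 protein-coding genes of the deposited table whose symbol begins with Ube2 or is Cdc34, Cdc34b or Birc6, out of 38674 genes in all, 21019 of them protein-coding. RNA came from the testes of C57BL/6 males of 3 genotypes, Pfn3+/+ (WT), Pfn3+/- (Het) and Pfn3-/- (KO), with 3 animals in each. The Het and KO animals carry deletions made in Pfn3 by CRISPR/Cas9 in every cell of the body. The study established several deletion lines, and the labels do not give the line or the age of the animals sequenced. The methods of the study state that sexually mature males, some months old, served all its experiments. The libraries were 3′ tag libraries (QuantSeq), in which each read stands for the end of a polyadenylated transcript, so levels of different genes were compared without division by transcript length. Values are normalized counts, that is gene counts divided by 1 scaling factor per library. The labels do not say that the animals came from separate litters, so p-values measure the spread between these animals.

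Ubiquitin is a small protein that cells attach to other proteins through a relay of enzymes. An E1 enzyme activates it, an E2 enzyme carries it on a cysteine as a thioester, and an E3 ligase guides its transfer to a substrate. The E2 largely sets whether a chain is built and through which lysine of ubiquitin it grows, and related E2s carry NEDD8 or other ubiquitin-like proteins. In the testis the system is known for its part in meiosis, in the exchange of histones in spermatids and in the removal of proteins and organelles as sperm form. Ube2b, for example, is needed for normal sperm formation in the mouse. Ube2v1 and Ube2v2 are E2 variants that lack the catalytic cysteine, and Ube2cbp is an E3-type protein that was taken in only through its name.

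The sequences below show the coding bases around the catalytic cysteine for the genes on which the results turn, and for their closest relatives. Each runs 5′ to 3′ over 36 bases, made of 10 codons, the cysteine codon in capitals and 1 further codon, and was read from the GENCODE M21 transcripts of GRCm38.
Ube2j2: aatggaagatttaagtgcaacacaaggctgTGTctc
Ube2j1: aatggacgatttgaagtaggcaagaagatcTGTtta
Cdc34: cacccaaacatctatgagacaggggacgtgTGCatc
Cdc34b: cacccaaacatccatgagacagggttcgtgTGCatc
Ube2a: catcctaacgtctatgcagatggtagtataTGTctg
Ube2b: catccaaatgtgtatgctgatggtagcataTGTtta
Ube2m: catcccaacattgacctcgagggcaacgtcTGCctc
Ube2t: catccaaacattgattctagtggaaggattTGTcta
Ube2dnl2: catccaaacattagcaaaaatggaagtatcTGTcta
Most E2s have a histidine, a proline and an asparagine a short way before the cysteine. In 24 of the 40 genes the coding sequence held these 3 codons followed by a cysteine codon after 6 to 8 other codons, and in 16 it did not. Ube2j1 and Ube2j2, which sit in the membrane of the endoplasmic reticulum, are among the 16, and their windows differ from each other at 15 of 36 bases. The windows of Cdc34 and its near copy Cdc34b differ at 3 bases, those of Ube2a and Ube2b at 7, and those of Ube2dnl1 and Ube2dnl2 at 0.

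Reads counted on genes numbered from 3375546 to 4287335 per library. One read was worth 0.859 to 1.24 normalized counts, and a limit of 3 reads corresponds to 2.58 to 3.71 normalized counts. WT replicate 1 had the fewest genes with signal (18229) and KO replicate 1 the most (20566). Pfn3 itself read 592, 383 and 373 in WT, 136, 339 and 326 in Het, and 74.7, 215 and 279 in KO. Such tags come from the 3′ end of Pfn3, downstream of the part targeted, so they do not check the genotype. Of the epididymis markers Lcn5, Lcn8, Crisp1, Defb20 and Adam7, 5 of 5 stayed under 10 in every library, whereas the protamine and transition protein transcripts of elongating spermatids were abundant.

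The E2 genes spanned more than 3 orders of magnitude in WT testis. A WT mean of at least 1000 was found for 6 genes, one between 100 and 1000 for 24, one between 10 and 100 for 5, and one under 10 for 5. Together the 40 genes took 0.4003% to 0.4653% of all normalized counts in a library. The highest WT mean was that of Cdc34 (2035 ± 1333, SD, n = 3), the E2 that works with SCF ligases to build K48-linked chains that send proteins to the proteasome. Next came Ube2j1 (1893 ± 307), Ube2d3 (1858 ± 17.9), Ube2k (1408 ± 255), Ube2n (1230 ± 323) and Ube2b (1153 ± 86.0). Several neighbours in this order did not differ beyond their spread. The Cdc34 values ran from 520 to 3031 in WT and so covered those of the 5 genes below it. The values of Ube2j1 and Ube2d3 overlapped, and so did those of Ube2k, Ube2n and Ube2b, whereas the lowest Ube2d3 value (1837) lay above the highest Ube2k value (1600.4) in WT. Ube2ql1 stayed at or under 3 reads in all 9 libraries, and Ube2e1, Ube2l6 and Ube2cbp were near that limit, with highest values of 7.72, 9.67 and 12.3.

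**Figure D1:**
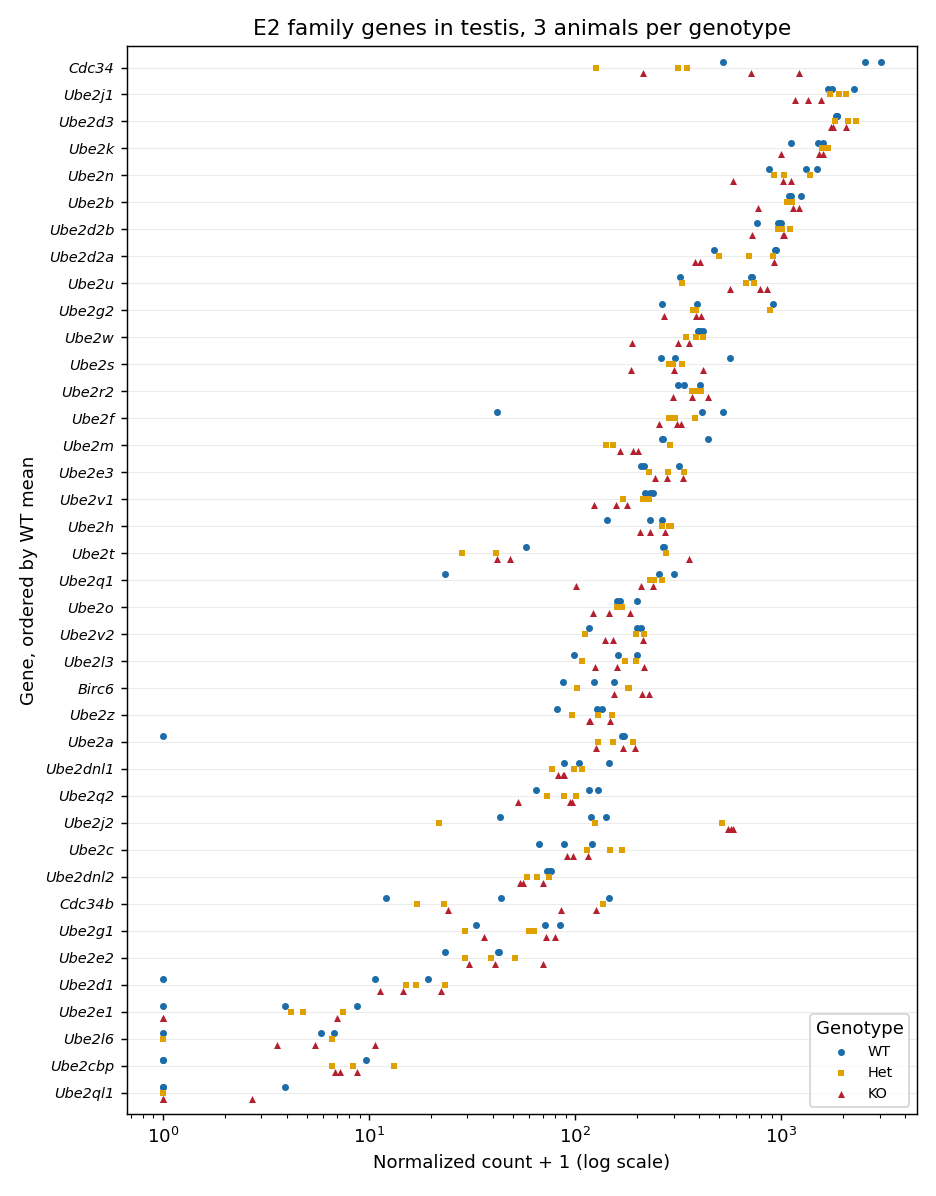
Normalized counts (plus 1, log scale) of the E2 genes in each of the 9 animals, with genes ordered by WT mean and 1 point per animal, blue circles for WT, yellow squares for Het and red triangles for KO. Most genes sit close together across animals, while Cdc34, Ube2j2, Ube2t, Cdc34b, Ube2q1, Ube2f and Ube2a have animals of 1 genotype more than 4-fold apart.

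The first comparison, KO against WT, asks whether loss of Pfn3 went along with a difference in the E2 transcripts. Of the 36 E2 genes with enough signal to be tested, 0 passed the cutoffs with limma (Benjamini-Hochberg adjusted p under 0.05 with an absolute log2 fold change above 1.5). The cutoffs are those of the study, which applied them with DESeq2. On the recovered reads DESeq2, in a later version, called 1 of 40 E2 genes (Ube2j2), beside 109 of 24422 genes in that fit. With edgeR 0 of 36 were called, beside 5 of 14223 genes. Over all 14223 genes tested with limma 0.0352% passed (5 genes). Of the 36 genes, 5 had an unadjusted p under 0.05 (13.9%), beside 8.07% of all genes tested. Ube2j2 and Birc6 were the 2 higher in KO (3.04% of all genes) and Ube2m, Ube2v1 and Ube2j1 were the 3 lower in KO (5.03% of all genes). The count changed with single animals left out, and so did that of all genes. It fell to 1 without KO replicate 2, to 2 without WT replicate 2, and to 3 without KO replicate 1 or KO replicate 3. The number of all genes tested at that level fell from 1148 to 640, 957, 842 and 731 in the same order. KO and WT animals did not overlap for 6 genes (16.7%), beside 19.9% of all genes tested. Of these, 1 (Ube2j2) lay higher in KO, beside 9.41% of all genes, and 5 (Ube2j1, Ube2m, Ube2v1, Ube2w and Ube2dnl2) lay lower, beside 10.5%. The median log2 fold change was 0.01 over the E2 genes and 0.02 over all genes tested, with 19 E2 genes above 0 (52.8%, beside 51.4% of all genes) and 17 below.

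**Figure D2:**
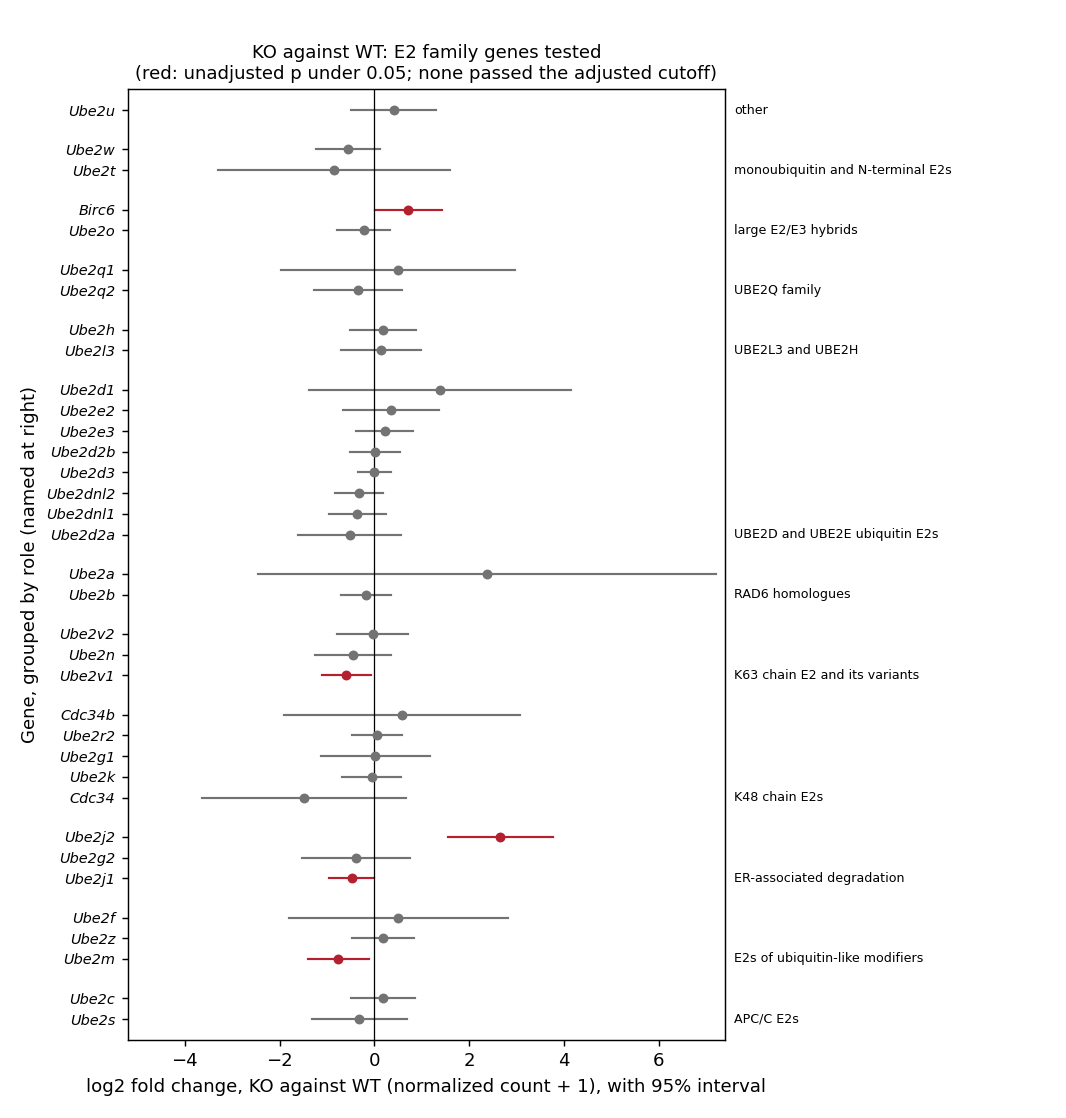
Log2 fold change of KO against WT on the normalized count + 1 scale for the E2 genes tested, grouped by role, with lines for the 95% interval and red for an unadjusted p under 0.05. Ube2j2 (2.66) is the gene whose interval lies farthest from 0, and the wide intervals belong to genes with a large spread within a genotype, such as Ube2a.

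The testis is a mixture of cells, and fewer cells of a type cannot be told apart from less RNA per cell in these samples. The summed counts of elongating spermatid markers (Tnp1, Tnp2, Prm1, Prm2, Odf1 and Oaz3) ran from 243427 to 262565 in WT, from 189066 to 229311 in Het and from 134191 to 207461 in KO. Round spermatid markers (Acrv1, Spaca1, Tssk1, Tssk2, Catsper1 and Acr) summed to between 6730 and 8295 in WT, 5138 and 6922 in Het, and 3364 and 5261 in KO. For both lists KO lay below WT with no overlap, and KO replicate 2 had the lowest sum. The most abundant genes set such sums. Taken singly, KO and WT overlapped for Prm1 and Oaz3, and for Acrv1, Spaca1 and Acr, and did not for the rest of the 2 lists. The paper reported no significant difference between genotypes for its marker genes, which included transition proteins and protamines. Spermatocyte markers (Sycp1, Sycp3, Spo11, Hormad1, Piwil1 and Ccna1) summed to between 4467 and 5362 in WT, 4459 and 6723 in Het, and 6027 and 6957 in KO. At an unadjusted limma p under 0.05, 3 of 6 elongating and 3 of 6 round spermatid genes were lower and 2 of 5 spermatocyte genes tested were higher in KO, and 0 of them passed the cutoffs. Over all genes tested 5.03% were lower and 3.04% higher at that level. The Sertoli cell markers (Sox9, Wt1, Gata4, Rhox5, Clu and Cldn11) summed to 5022 in KO replicate 2, and to 2254 and 2615 in the other KO animals and between 2485 and 3846 in WT and 2388 and 3260.1 in Het, with 1 of 6 genes higher in KO at an unadjusted p under 0.05. KO replicate 2 was also the lowest KO animal for Ube2j1, Ube2v1 and Ube2w. It was not for Ube2m, lowest in KO replicate 3, or Ube2dnl2, lowest in KO replicate 1. The part of these marker differences in the E2 values was not tested.

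**Figure D3:**
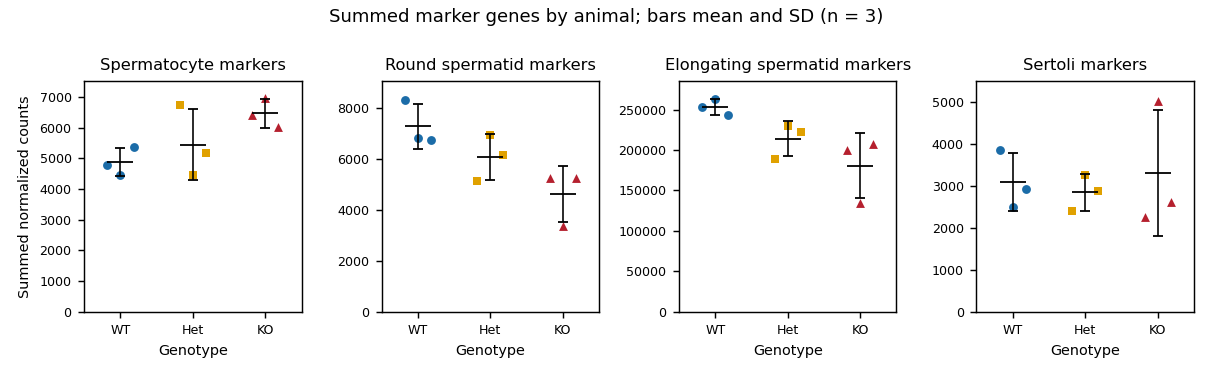
Summed normalized counts of marker genes of spermatocytes, round spermatids, elongating spermatids and Sertoli cells, with 1 point per animal and bars for the mean and SD (n = 3). The elongating spermatid sums reach 207461 at most in KO and start at 243427 in WT, and the KO spermatocyte sums lie above the WT sums.

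Ube2j2, Ube2j1 and Ube2g2 are the E2s of endoplasmic reticulum-associated degradation, in which misfolded proteins are pulled from the membrane and tagged for the proteasome. Ube2j2 (chr4:155943831-155959604, plus strand, GRCm38) was 42.1, 139.9 and 119 in WT. It was 20.8, 124 and 514 in Het, and 584, 551 and 568 in KO. All 3 KO animals lay close together and above all WT animals, and 1 Het animal lay near the KO level while the other two lay within or below the WT range. The KO mean of 568 ± 16.3 (SD, n = 3) was 5.66 times the WT mean of 100.2 ± 51.5. The log2 fold change was 2.66 (SE 0.46, 95% interval 1.55 to 3.77, limma adjusted p = 0.349), which ranked 39 among all genes by unadjusted p. This call turned on the test and on 1 animal. DESeq2 on the recovered reads gave 2.50 (adjusted p = 0.000107), edgeR on the same reads gave 2.52 (adjusted p = 0.384), and the replicate block gave an adjusted p of 0.703. Without WT replicate 1, the lowest WT animal, limma gave 2.13 (adjusted p = 0.0130), and leaving out each of the other animals in turn gave at most 2.98. Over all these alternatives the adjusted p ran from 0.000107 to 0.812. In the annotation, 211 of 1152 stretches of 50 bases (18.3%) near the 3′ ends of Ube2j2 transcripts also occur in the processed pseudogene Gm5801, which is not analysed here. The nearest table gene that reached 10, C1qtnf12 on the same strand, ran from 53.2 to 116 with no split of this kind.

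Ube2j1 (chr4:33031416-33052363, plus strand), which is known to be needed for male fertility in the mouse, was lower in KO. Its values were 2245, 1757 and 1678 in WT, 2047, 1717 and 1906 in Het, and 1347, 1162 and 1563 in KO. The KO animals lay below all 6 others. The KO mean was 0.717 of the WT mean (log2 fold change -0.48, SE 0.20, limma adjusted p = 0.610), and the same size was seen against Het (-0.48, SE 0.16, adjusted p = 0.973). Those 2 comparisons share the KO animals. No stretch of 50 bases at its 3′ ends occurs in another annotated transcript. Ube2g2, the cytosolic E2 of this pathway, was 390.0, 906 and 264 in WT, 372, 878 and 386 in Het and 385, 268 and 408 in KO, with overlapping groups (-0.38, SE 0.47, adjusted p = 0.749). The summed counts of the 3 genes ran from 2060.5 to 2802 in WT and from 1981 to 2539 in KO, with Ube2j1 making up most of each sum.

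**Figure D4:**
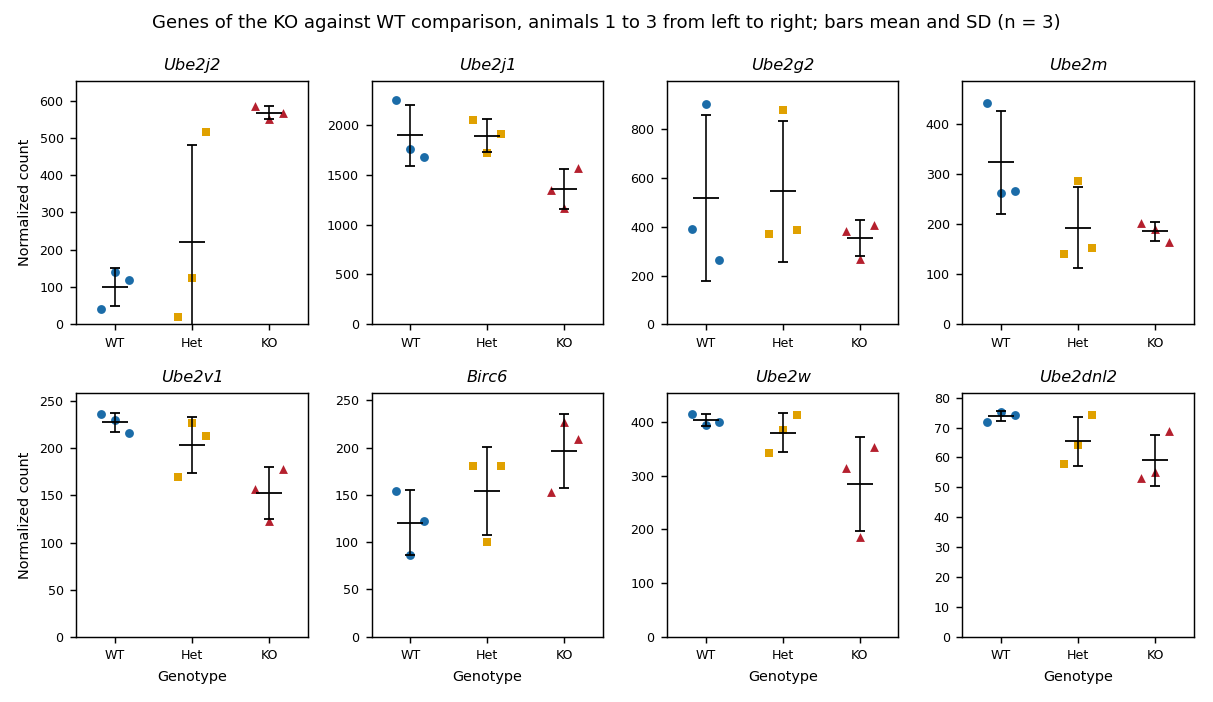
Normalized counts of 8 E2 genes in each animal, points in replicate order within WT, Het and KO, with bars for the mean and SD (n = 3, the lower bar of Het for Ube2j2 runs below the axis). Ube2j2 is near 568 in all KO animals against 42.1 to 139.9 in WT, and Ube2j1, Ube2m, Ube2v1, Ube2w and Ube2dnl2 have KO animals below all WT animals.

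Among the E2s of ubiquitin-like proteins, Ube2m (chr7:13035120-13038275, minus strand) hands NEDD8 to cullin ligases. It measured 441, 261 and 266 in WT, 140, 286 and 152 in Het, and 202, 190 and 164 in KO. The KO animals lay below the WT animals, but so did 2 of the 3 Het animals. The log2 fold change of KO against WT was -0.76 (SE 0.26, 95% interval -1.40 to -0.12, limma adjusted p = 0.610), and that of Het against WT was -0.77 (SE 0.37, adjusted p = 0.779). Its neighbour Chmp2a, which lies less than 5 kb away on the same strand, measured 285, 458 and 429 in WT, 180, 386 and 181 in Het, and 296, 230 and 213 in KO. Ube2f, the other NEDD8 E2, was 519, 413 and 40.6 in WT, 304, 380 and 285 in Het, and 309, 254 and 325 in KO, and 1 WT animal stood far below the rest. Its fitted KO against WT change was 0.51 with all animals and -0.65 without that animal (WT replicate 3). Ube2z, which takes ubiquitin or FAT10 from Uba6, ran from 80.5 to 150 across all 9 animals, and Ube2l6, the ISG15 enzyme, stayed under 10.

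The K63 group builds chains used in DNA repair and signalling rather than in degradation, and in it Ube2n is the enzyme and Ube2v1 and Ube2v2 are its partners. Ube2v1 and Ube2n had a negative KO against WT fold change, and Ube2v1 had an unadjusted p under 0.05. Ube2v2 lay near 0, and its sign changed when WT replicate 1 was left out (0.09). Ube2v1 (chr2:167607638-167632095, minus strand) was 236, 231 and 216 in WT, 170, 227 and 213 in Het, and 157, 123 and 178 in KO. The KO animals lay below the WT animals and the Het animals reached from one to the other. The KO mean was 0.670 of the WT mean (-0.59, SE 0.21, limma adjusted p = 0.610). Of the stretches of 50 bases at its 3′ ends, 91.4% also occur in other annotated transcripts, above all in Gm20431, which is not analysed here, so its counts are uncertain. Ube2n was 870, 1324 and 1497 in WT, 917, 1377 and 1035 in Het, and 1117, 584 and 1016 in KO, with overlapping groups (-0.46, SE 0.33, 95% interval -1.26 to 0.34). Ube2v2 ran from 111 to 216 over the 9 animals (-0.03, SE 0.31).

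Cdc34 (chr10:79682195-79688398, plus strand) was the E2 gene that varied most among the abundant ones. It measured 3031, 2554 and 520 in WT, 125, 346 and 315 in Het, and 211, 1214 and 711 in KO. Both of the highest values were WT, the third WT animal lay within the KO range, and all Het animals lay below all WT animals. Het against WT gave a log2 fold change of -2.73 (SE 0.77, 95% interval -4.60 to -0.86, limma adjusted p = 0.779) and KO against WT gave -1.49 (SE 0.89, adjusted p = 0.637). For Het against WT, DESeq2 gave -2.95 with an adjusted p of 0.0347, whereas over the alternatives, each animal left out included, the adjusted p reached 0.941. The reads behind these values numbered 132 to 2647 per library, far above the limit of 3. Cdc34b (chr11:94741782-94743033, plus strand) was 11.1, 146 and 42.5 in WT, 16.1, 136 and 22.2 in Het, and 23.2, 84.2 and 125 in KO. The WT animal highest for Cdc34 was the lowest of all 9 for Cdc34b. In contrast, WT replicate 2 was high for both genes (2554 and 146), and Het replicate 1 was low for both (125 and 16.1). At the sequence level 14.3% of the 50-base stretches at the 3′ ends of Cdc34 and 9.63% of those of Cdc34b occur in the other gene. The other K48 enzymes were steadier. Ube2k was 1118, 1600.4 and 1504 in WT, 1677, 1577 and 1654 in Het, and 1517, 992 and 1596 in KO (-0.05, SE 0.26, 95% interval -0.67 to 0.56). Ube2r2 ran from 296 to 440.2 and Ube2g1 from 28.3 to 83.0.

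The UBE2D and UBE2E enzymes are promiscuous E2s that serve a great many E3 ligases. Of their 9 genes 8 were tested, 5 of them with a fold change above 0 and 3 below, and 0 had p under 0.05 (median log2 fold change 0.01). Ube2d3 had the lowest spread of all 40 genes, with a coefficient of variation of 9.66% over the 9 animals. It was 1837, 1871 and 1865 in WT, 2310.1, 1816 and 2103 in Het, and 1781, 1744 and 2065 in KO, and its KO against WT fold change was 0.00 (SE 0.14, 95% interval -0.35 to 0.35). Of the 50-base stretches at the 3′ ends of Ube2d3, 18.5% also occur in other annotated transcripts. Ube2d2b was steady too (723 to 1103). Ube2dnl2, an X-linked gene of this family, was 71.8, 75.2 and 74.3 in WT, 57.6, 64.3 and 74.1 in Het, and 53.3, 55.1 and 68.8 in KO. Its KO animals lay below its WT animals by a small amount (-0.33, SE 0.21, adjusted p = 0.641). Its neighbour and near copy Ube2dnl1 ran from 76.4 to 145 (-0.36, SE 0.25). Ube2d2a, Ube2e2, Ube2e3 and Ube2d1 had fold changes of -0.52, 0.35, 0.22 and 1.39, with intervals that include 0. Ube2d1 was a low gene, listed at 0 in WT replicate 1 and from 9.65 to 22.3 in the other animals, so its fold change is uncertain.

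The RAD6 homologues Ube2a and Ube2b, which ubiquitinate histones and the repair clamp PCNA, were not equally abundant. Ube2b was 1119, 1250.2 and 1088 in WT, 1129, 1062 and 1082 in Het, and 1212, 773 and 1139 in KO (-0.17, SE 0.22, 95% interval -0.70 to 0.36). X-linked Ube2a was listed at 0, 172 and 168 in WT, and was 152, 129 and 190 in Het and 195, 125 and 169 in KO. The fitted fold change of Ube2a (2.39, SE 1.99, adjusted p = 0.665) rests on the WT animal at 0, the other 8 lying between 125 and 195, and was -0.08 without it. The APC/C enzymes start (Ube2c) and extend (Ube2s) chains on cell cycle proteins. Ube2c was 65.6, 87.8 and 120 in WT, 168, 113 and 147 in Het, and 90.2, 96.7 and 114 in KO. For Ube2c, Het lay above WT with overlap (0.67, SE 0.30, adjusted p = 0.779) and KO was between them, and Ube2s ran from 185 to 561.

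Birc6, a giant protein with an E2 domain that restrains cell death and autophagy, was 154, 85.9 and 123 in WT, 180, 101 and 181 in Het, and 153, 227 and 209 in KO. The groups overlapped, the highest WT and the lowest KO animal lying within 1 count of each other. The KO mean was 1.63 times the WT mean (0.72, SE 0.29, limma adjusted p = 0.610). The other large E2, Ube2o, known for clearing ribosomal proteins from maturing red cells, ran from 121 to 199 (-0.23, SE 0.23). Ube2w, which attaches ubiquitin to the amino terminus of proteins, was 416, 396 and 401 in WT, 342, 386 and 414 in Het, and 315, 187 and 354 in KO. Its KO animals lay below its WT animals (-0.55, SE 0.28, adjusted p = 0.615). Ube2t, the E2 of the Fanconi anaemia repair pathway, was 57.0, 266 and 268 in WT, 27.4, 275 and 40.2 in Het, and 357, 40.6 and 47.4 in KO, with high and low animals in every genotype. Ube2q1 was 22.3, 300.02 and 254 in WT, 262, 240.2 and 229 in Het, and 238, 208 and 100.1 in KO. Ube2q2 ran from 51.5 to 128, Ube2l3 (the E2 of parkin and HOIP) from 97.4 to 215, Ube2h from 142 to 290.1 and Ube2u from 321 to 855. None of the last 4 had a KO against WT p under 0.05.

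In Het against WT, 0 of 36 E2 genes passed the cutoffs, as did 0% of the 14216 genes tested (0 genes, with 475 at an unadjusted p under 0.05, 0 by edgeR and 32 by DESeq2). DESeq2 called 1 E2 gene there, Cdc34, and edgeR 0. Only Cdc34 among the E2 genes had p under 0.05 (beside 3.34% of all genes tested) and only Cdc34 had groups that did not overlap (beside 13.3%). Without WT replicate 3 the first of these counts was 2, with Ube2c added, and without Het replicate 2 it was 3, with Ube2m and Ube2t added. The number of all genes at that level was 617 and 765 in these fits, beside 475 with all animals. Ube2j2 gave 0.32 (95% interval -2.51 to 3.14), its Het animals spreading from 20.8 to 514. In KO against Het, 0 of 36 passed with limma, 0 with edgeR and 0 with DESeq2, beside 0.0558% of 14343 genes with limma. The E2 genes with p under 0.05 numbered 1, Ube2j1 (beside 3.56% of all genes). Without Het replicate 1 the count was 0, and without Het replicate 2 or without KO replicate 3 it was 2. The number of all genes at that level was 747, 534 and 427 in these fits, beside 510 with all animals. The E2 count was 1 without Het replicate 3 (Ube2j2) and 1 without KO replicate 1 (Cdc34), with Ube2j1 no longer under 0.05 in either. Over all genes the numbers there were 353 and 327. The groups did not overlap for 2 genes, Ube2j1 lower in KO (1 gene, beside 4.90% of all genes tested) and Ube2j2 higher (1 gene, beside 5.12%). Ube2j2 gave 2.34 (SE 1.07, adjusted p = 0.973). The median log2 fold change over the E2 genes was 0.04 in Het against WT and -0.11 in KO against Het, beside 0.01 and -0.00 over all genes tested. The 3 comparisons share animals in pairs.

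Large differences between animals of the same genotype occurred in several E2 genes, at a share near that of all genes. In 7 of the 35 E2 genes that reached 50, 1 animal exceeded another of its genotype more than 4-fold, beside 22.8% of the 10523 genes of the table that reached 50. These 7 were Ube2t, Ube2q1, Ube2j2, Cdc34, Ube2a, Cdc34b and Ube2f. Leaving out WT replicate 1 removed Ube2q1 and Ube2a and left 5 (14.3%, beside 16.9% of genes). The coefficient of variation over the 9 animals was 107% for Cdc34, 87.6% for Ube2t, 84.1% for Ube2j2 and 82.8% for Cdc34b. The low animals differed from gene to gene. WT replicate 1 was low for Ube2a, Ube2q1, Cdc34b and Ube2t but was the highest animal for Cdc34 and Ube2f, and WT replicate 3 was the lowest for Ube2f.

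**Figure D5:**
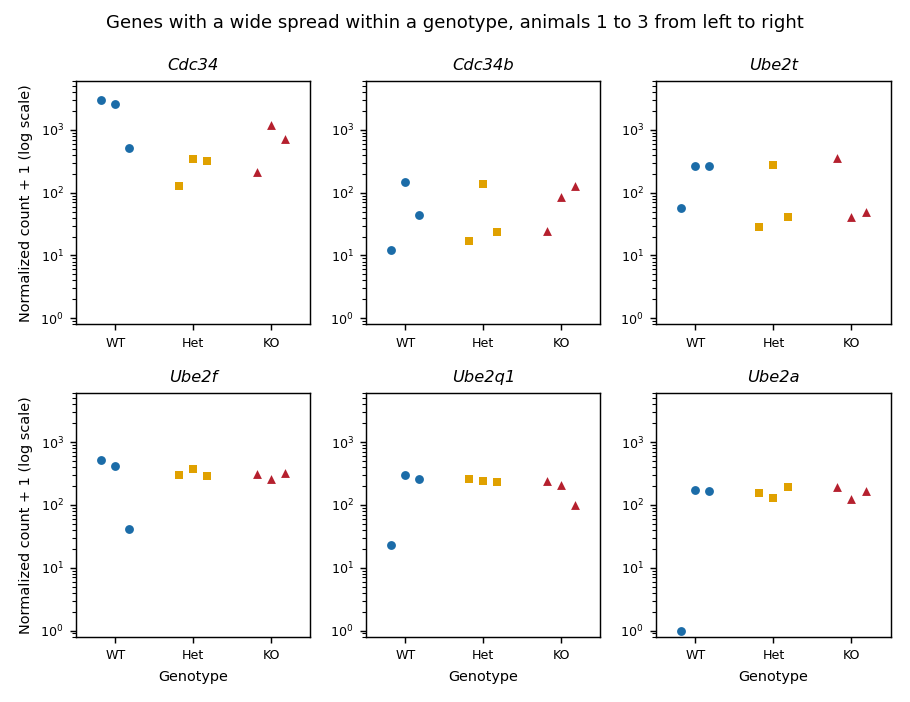
Normalized counts (plus 1, log scale) of 6 E2 genes whose animals differ more than 4-fold within a genotype, points in replicate order within WT, Het and KO. The low animals differ from gene to gene, for example WT replicate 1 for Ube2a (listed at 0) and WT replicate 3 for Ube2f (40.6).

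The other steps of the pathway were counted from lists of E1 enzymes, modifiers, E2-like proteins outside the name rule, E3 ligases that work with these E2s, and deubiquitinases. With limma and with edgeR 0 of these genes passed the cutoffs in KO against WT. With DESeq2 1 did, the deubiquitinase Bap1, beside 109 of all 24422 genes in that fit. Without WT replicate 1 limma called 2, Bap1 and Tsg101, an E2-like protein, beside 55 of all 14223 genes. Bap1, looked at after its values were seen, was 26.0, 229 and 224 in WT, 15.1, 200.2 and 155 in Het, and 18.9, 14.5 and 15.2 in KO (-2.71, SE 0.85, limma adjusted p = 0.610). The counts at an unadjusted p under 0.05 given next are to be read beside the 8.07% of all genes tested at that level (3.04% higher and 5.03% lower). Of 9 E1 genes and subunits tested 5 were above 0 and 4 below, with 1 at p under 0.05. That gene was Atg7, the E1-like enzyme of autophagy, at 244, 178 and 185 in WT, 77.5, 174 and 119 in Het and 99.6, 104 and 117 in KO (-0.90, SE 0.21, limma adjusted p = 0.583). Of 57 E3 genes 30 were above 0 and 27 below, with 2 higher and 4 lower at p under 0.05. Ube3a, a HECT ligase that works with Ube2l3, was 459, 380.1 and 463 in WT, 698, 418 and 596 in Het, and 699, 620.1 and 718 in KO (0.65, SE 0.17, adjusted p = 0.610). Ranbp2, a large protein of the nuclear pore, was the other higher gene (0.46, SE 0.19, adjusted p = 0.610). Ring1, of the Polycomb ligase that ubiquitinates histone H2A, was low throughout. It was 34.7, 30.9 and 32.8 in WT, 0, 18.6 and 0 in Het, and 15.5, 11.6 and 14.3 in KO (-1.20, SE 0.28, adjusted p = 0.562). Fzr1, an activator of the APC/C, was 631, 460.2 and 460 in WT, 88.8, 398 and 236 in Het, and 133, 320.2 and 209 in KO (-1.30, SE 0.35, adjusted p = 0.610). Of 35 deubiquitinase genes 17 were above 0 and 18 below, with 3 lower at p under 0.05. The 9 modifier genes (4 above and 5 below) and the 6 E2-like genes (3 and 3) had 0 at that level. The list medians were 0.16 for E1, -0.08 for modifiers, 0.13 for E2-like genes, 0.11 for E3 and -0.01 for deubiquitinases, beside 0.02 for all genes tested.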

How the data were processed

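Testis RNA from 9 mice (3 WT, 3 Het, 3 KO, grouped by the labels) was sequenced as QuantSeq 3′ libraries. The authors trimmed reads with Trim Galore 0.4.5, aligned them with HISAT2 2.1 to GRCm38, counted genes with StringTie 1.3.3 and the count script of its package, and removed pseudogenes. The deposited values are a signal, the counts of each gene over 1 library size factor (normalized counts). In every library 100% of values above 0 were integer multiples of 1 step within a tolerance of 0.001, and the reads so recovered served the alternatives. That script derives counts from coverage, and a limit of 3 reads covers counting error only, while the 95% intervals come from the limma fits and carry the spread between animals. Of the 40 genes, 39 carry names of loci of the merged assembly, so reads near shared or overlapping ends could be assigned to either gene.

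Genes that reached 10 in 3 or more of the 6 samples of a comparison were tested with limma 3.58.1 (eBayes with a trend, R 4.3.3) on log2(value + 1), which understates fold changes of low genes, with Benjamini-Hochberg adjustment over all genes tested. Only the 2 genotypes compared entered a fit. Called genes had an adjusted p under 0.05 with an absolute log2 fold change above 1.5, cutoffs that the authors applied with DESeq2. Alternatives were edgeR 4.0.16 and DESeq2 1.42.0 on recovered reads, pseudocounts of 0.5 and 5, other filters and cutoffs, TMM factors, all 9 samples in 1 fit, a replicate block and each animal left out. The functions were tested on simulated data.

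Members and lists were chosen with earlier results of these data known. Animal values are printed for members with p under 0.05 in any comparison, with KO and WT apart, with one of the 5 highest WT means, with a spread over 4-fold within a genotype at 50 or more, or chosen for known roles (Ube2a, Ube2b, Ube2j1, Ube2n, Ube2c and Birc6). Ube2g2 was added outside this rule, after its values were seen, as the remaining E2 of its pathway, and so was Bap1. The values of 1 gene are not reported here, though the counts include it. Other pathway genes are named at p under 0.05 in KO against WT, at most 3 in each direction. Tsg101, which limma called without WT replicate 1, and Uba1, Btrc and Cul2 do not meet this rule and were named outside it. Btrc and Cul2 were added after their values were seen. Coding and 3′ sequences came from GENCODE M21 (GRCm38), to which 40 of 40 genes matched. Shared stretches are 50-base runs of the last 300 bases of each transcript. At least 10% of them were shared in 10 of the 40 genes. Among these were Ube2e1 (66.9%), Ube2h (48.6%), Ube2d2a (21.4%), Ube2d3 (18.5%) and Ube2v2 (16.2%). Figures used Python 3.11.15 and matplotlib 3.10.9. Replicate pairs differed by over 2 Poisson SD at 35.4% to 70.6% of genes with at least 100 reads, so no library was counted as a repeat.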

Additional observations from a re-analysis of the deposited data

How the results depend on the processing

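Of 9 fold changes of single E2 genes carried through every alternative (those at an unadjusted p under 0.05 or, in KO against WT, without overlap), 0 changed direction and 2 passed the cutoffs under some: Ube2j2 in KO against WT with DESeq2 (2.50) and without WT replicate 1 (2.13), and Cdc34 in Het against WT with DESeq2 (-2.95). Among all 36 genes tested, 18, 18 and 16 changed sign under at least 1 alternative in KO against WT, Het against WT and then KO against Het. Those with a log2 fold change over 0.5 were, in KO against WT, Ube2a (2.39, and -0.08 without WT replicate 1), Cdc34b (0.58, and -0.32 without WT replicate 1) and Ube2f (0.51, -0.65 without WT replicate 3, -0.10 with edgeR and -0.12 with DESeq2). In Het against WT they were Ube2a (2.34, and -0.13 without WT replicate 1), Ube2q1 (1.01, and -0.18 without WT replicate 1) and Ube2f (0.63, and -0.53 without WT replicate 3). The number of E2 genes called, 0 in each comparison, was 1 with DESeq2 in KO against WT (Ube2j2) and 1 in Het against WT (Cdc34), and 0 to 1 with each animal left out in KO against WT. Over all genes, KO against WT had 5 calls by limma, 5 by edgeR and 109 by DESeq2, Het against WT had 0, 0 and 32, and KO against Het had 8, 7 and 41. In KO against WT limma called 55 genes without WT replicate 1 and 0 when WT replicate 2, KO replicate 2 or WT replicate 3 was dropped. E2 genes at an unadjusted p under 0.05 numbered 5 in KO against WT and 1 to 4 with an animal left out. All genes at that level numbered 1148 and 640 to 1266. E2 genes numbered 1 in Het against WT, 3 with all 9 samples in 1 fit and 1 to 3 with an animal left out. All genes there numbered 475, 853 and 189 to 765. In KO against Het the E2 genes numbered 1, 2 with DESeq2, 2 with all 9 samples in 1 fit and 0 to 2 with an animal left out. All genes there numbered 510, 520, 424 and 327 to 747. The cause of these moves was not tested. Genes without overlap, 6, 1 and 2 in the 3 comparisons, numbered 7 to 11, 2 to 9 and 4 to 10 with an animal left out, an alternative chosen after seeing the data, in which fewer animals overlap less by construction. With the replicate number as a block, E2 genes at p under 0.05 numbered 2 in KO against WT (Ube2j2 and Ube2m) and 2 in KO against Het, and no E2 gene was called. All genes at that level numbered 794 and 403. Whether the numbers pair the animals is not settled. Correlations of same-numbered deviations were -0.123, -0.06 and -0.03 for KO with WT, 0.175, 0.205 and -0.03 for Het with WT, and -0.135, -0.106 and 0.07 for KO with Het. For Het with WT, numbers 1 and 2 lay above their best correlation with another number (0.0452 and 0.195). So did number 3 of KO with Het (-0.0035), and the rest lay below theirs. The 10 genes with the highest WT means kept their order with TMM factors and with library totals. Depth limits Ube2e1, Ube2l6, Ube2cbp and Ube2ql1, for which no difference was detectable.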

Other observations

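Uba1, the main E1 enzyme of ubiquitin, was looked at after its values and those of Ube2t had been seen. It was 27.2, 566 and 617 in WT, 9.45, 639 and 31.7 in Het and 345, 32.9 and 20.6 in KO. The 4 animals in which Uba1 was high (WT replicates 2 and 3, Het replicate 2 and KO replicate 1) were the 4 in which Ube2t was high, and KO against WT gave -1.76 for Uba1 (SE 1.55, limma adjusted p = 0.671). The E3 genes Btrc and Cul2 were high in the same 4 animals and in KO replicate 2. Btrc was 222, 159, 160 and 123 there, 123 in KO replicate 2 and at most 9.52 elsewhere. Of all genes that reached 50, 22.8% spread more than 4-fold within a genotype. How many of them share these animals was not tested. Tsg101, an E2-like protein without the catalytic cysteine that sorts ubiquitinated membrane proteins, was 11.1, 155 and 134 in WT, 17.95, 118 and 141 in Het and 9.45, 12.6 and 16.1 in KO, so that 1 WT and 1 Het animal lay within or near the KO range. KO against WT gave -2.24 (SE 1.0, limma adjusted p = 0.612), and without WT replicate 1 limma called Tsg101.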
